A study of Homo sapiens with 18 samples.

Results

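The genes described here are 10 of the 43735 genes in the count tables. They are the genes of cytosolic HSP90 (HSP90AA1, HSP90AB1), of the mitochondrial chaperonin (HSPD1, HSPE1), of 4 HSP90 co-chaperones (AHSA1, CHORDC1, STIP1, FKBP4) and of 2 heat shock transcription factors (HSF1, HSF2). They were chosen by symbol, with earlier results of these data known. All 10 passed the filter on low counts, which kept 14281 genes. The RNA came from 2 human multiple myeloma lines, MM1S, which is sensitive to glucocorticoids, and MM1R, which resists them. Each line was left untreated, given 5 µM RSL3 for 3 h, or given 2 µM Fer-1 for 2 h and then the same RSL3, with 3 libraries per group taken at passages 4, 6 and 7 of MM1R and at passages 16, 22 and 23 of MM1S. RSL3 inhibits GPX4, the enzyme that detoxifies lipid peroxides, and Fer-1 (ferrostatin-1) traps the radicals that drive lipid peroxidation. The comparisons ask whether this early ferroptotic stimulus changed the chaperone transcripts, whether Fer-1 altered that change, and whether the lines differed. No group received Fer-1 alone. The passages of a line are the only replicates that the labels name. In the fit of group means, p-values rest on the spread between passages within a group, pooled over the groups of both lines. A p-value for MM1R or MM1S therefore does not rest on the spread in that line only. Where the passage is fitted as a block, p-values rest on how the treatment response varies between passages, again pooled over both lines.

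HSP90 is an ATP-driven dimer that holds kinases, steroid hormone receptors and other client proteins in a near-native state. HSP90AA1 encodes the form whose transcription rises under proteotoxic stress, and HSP90AB1 the form that most cells make constitutively. Co-chaperones time the HSP90 cycle, while HSPD1 and HSPE1 encode the ring and the lid of the HSP60 chamber that folds proteins in the mitochondrial matrix. HSF1 is the main activator of these genes under heat or proteotoxic stress, and it binds heat shock elements, which are inverted repeats of the unit GAA. HSF2 is a related factor that can form mixed trimers with HSF1. Plasma cells secrete large amounts of immunoglobulin and carry a high protein folding load.

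Promoter sequence is shown for the 4 genes in which a heat shock element of 3 units was found. HSP90AA1 and CHORDC1, 2 of these 4, also had the largest averaged fold changes under RSL3. A link between motif and response was not tested. RefSeq promoters (GRCh38.p14, 250 bases before to 50 bases after a start) were searched for 8 of the 10 genes. No promoter of FKBP4 or HSF1 was searched, so whether these genes have the motif is not known here. The motif GAANNTTCNNGAA, searched on both strands, was found in 0.49% of all 35116 promoters and in at least 1 promoter of 0.608% of 27305 gene symbols. Of the 8 genes, several with more than 1 promoter searched, it was found in 4, HSP90AA1, HSP90AB1, HSPD1 and CHORDC1, and not in the windows of HSPE1, AHSA1, STIP1 and HSF2. A match is a run of letters and does not show that a factor was bound, and a window without a match does not show the opposite. The windows below are read 5′ to 3′ on the strand of the gene, with the matching bases in capitals.
HSP90AA1: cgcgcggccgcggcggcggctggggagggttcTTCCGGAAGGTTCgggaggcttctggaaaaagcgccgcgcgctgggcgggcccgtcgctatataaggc
HSP90AB1: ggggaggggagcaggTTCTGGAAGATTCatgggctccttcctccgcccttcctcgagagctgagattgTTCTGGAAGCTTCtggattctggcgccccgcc
HSPD1: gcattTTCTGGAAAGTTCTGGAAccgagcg
CHORDC1: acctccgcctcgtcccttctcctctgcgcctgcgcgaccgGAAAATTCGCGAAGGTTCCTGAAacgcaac

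The HSP90AA1 window lies at chr14:102087065-102087164 on the minus strand, from 120 to 21 bases before the start, and its 1 match begins 88 bases before it. HSP90AB1 is read at chr6:44247763-44247862 on the plus strand, where matches begin 165 and 112 bases before the start. HSPD1 is read at chr2:197500061-197500090 on the minus strand, where 2 overlapping matches begin 245 and 240 bases before the start. That stretch also lies between HSPD1 and HSPE1, which face away from each other with 538 bases between these starts, and it is outside the 250 bases searched for HSPE1. CHORDC1 is read at chr11:90223080-90223149 on the minus strand, where 3 overlapping matches begin 60, 55 and 50 bases before the start and form 1 unbroken array.

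The libraries held 17635438 to 19368343 counts. Of the 10 plasma cell markers listed, 9 were in the table, and all 9 lay above 1 CPM (counts per 1000000, scaled by TMM) in every library, while the markers of T cells, monocytes and epithelium summed to at most 11.8 CPM. Fibroblast markers, almost wholly COL1A1, summed to 19.7 CPM in the MM1S RSL3 library of passage 16 and to at most 3.93 CPM in the other 17 libraries, and their part in the results was not tested. NR3C1, the glucocorticoid receptor, which MM1R has largely lost, was at 89.9 to 163 CPM in 8 MM1S libraries, at 391.8 CPM in the MM1S RSL3 library of passage 16 and at 13.8 to 22.3 CPM in 8 of the 9 MM1R libraries. The passage 6 library of MM1R with Fer-1 and RSL3 had 50.2 CPM. There, 13 genes specific to MM1S lay a median of 49.3% of the way from the mean of other MM1R libraries to the MM1S mean. The main results that rest on this library are also given without it. Bulk RNA cannot tell a change in RNA per cell from a change in the share of cells that carry it.

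Without treatment, the genes stood in nearly the same order in both lines. Per kb of canonical transcript, HSP90AB1 was the highest, at 889 ± 156 CPM per kb in MM1R and 1016 ± 149 in MM1S (SD, n = 3). HSPD1 followed at 385 ± 56.7 and 446 ± 48.1 CPM per kb. STIP1, the adaptor that hands clients from HSP70 to HSP90, was at 194 ± 36.8 and 197 ± 3.30, and HSP90AA1 at 194 ± 44.6 and 226 ± 23.4, with libraries that overlapped in MM1R and not in MM1S. AHSA1, which stimulates the HSP90 ATPase, stood at 102 ± 24.1 and 113 ± 9.84 CPM per kb, FKBP4, an immunophilin of steroid receptor complexes, at 79.7 ± 18.7 and 89.8 ± 8.09, and HSPE1 at 57.9 ± 21.1 and 52.9 ± 2.75. These 3 neighbours overlapped in MM1R. The transcription factors were far lower, with HSF2 at 13.0 ± 0.279 and 14.4 ± 1.38 CPM per kb and HSF1 at 2.53 ± 0.396 and 2.60 ± 0.341. CHORDC1, an HSP90-binding protein with zinc-binding CHORD domains, was the lowest, at 0.275 ± 0.0751 and 0.291 ± 0.0854 CPM per kb. Its libraries held 12 to 93 counts and those of HSF1 86 to 163, so that both are measured with large counting error. Further rows named CHORDC1_1, HSF1_1 and HSPE1-MOB4 held 0 counts. How reads shared with such rows were counted is not given, so the levels of CHORDC1, HSF1 and HSPE1 may be too low. None of the 10 genes passed an FDR of 0.05 between the untreated lines in edgeR's quasi-likelihood test, where 10.5% of all genes did (0 also at an unadjusted p under 0.05 and with DESeq2), and their log2 differences (MM1R minus MM1S) lay between -0.22 and 0.13.

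**Figure D1:**
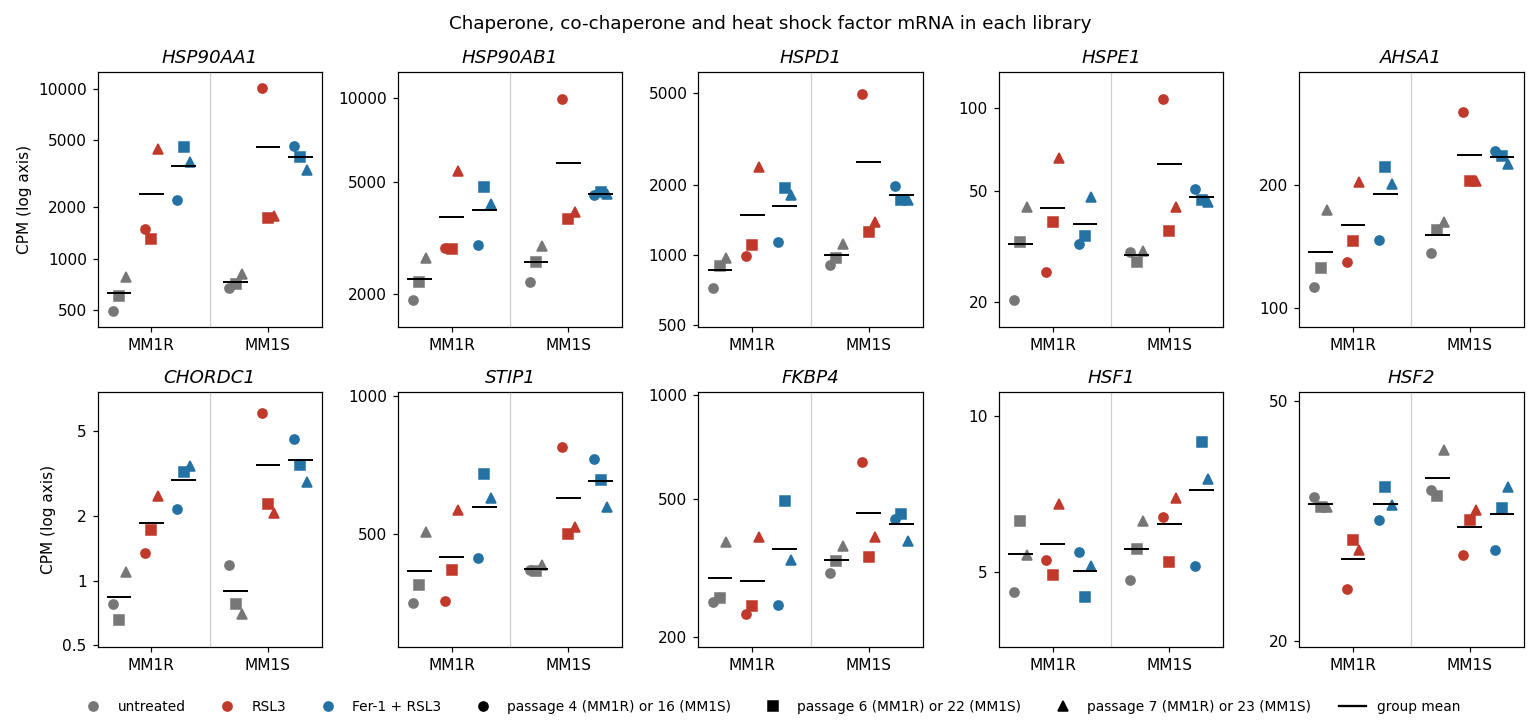
CPM of each gene in each of the 18 libraries, on a log axis with its own range per panel. Colours give the treatment, symbols the passage and horizontal bars the mean of the 3 libraries. The HSP90, chaperonin and co-chaperone genes were each highest in the MM1S RSL3 library of passage 16. HSF2 was lower with RSL3 than without it in both lines.

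HSP90AA1 had the largest averaged log2 fold change with RSL3 of the 10 genes, although CHORDC1 rose more in 3 of 6 passages. In MM1R, HSP90AA1 stood at 495, 602 and 780 CPM without treatment at passages 4, 6 and 7, and at 1488, 1296 and 4437 CPM with RSL3. In MM1S, it stood at 671, 705 and 816 CPM without treatment at passages 16, 22 and 23, and at 10029, 1733 and 1780.1 CPM with RSL3. The treated and untreated libraries did not overlap in either line, and 2 RSL3 libraries, those of MM1R passage 7 and MM1S passage 16, stood well above the other 4. Within a passage the rise was 3.01-, 2.15- and 5.69-fold in MM1R and 14.9-, 2.46- and 2.18-fold in MM1S. Averaged over both lines, the log2 fold change was 2.29 ± 0.41 (SE) with an FDR of 0.00156. By line it was 2.63 ± 0.59 in MM1S (FDR 0.0219) and 1.94 ± 0.57 in MM1R (FDR 0.0707). The averaged call was kept in each of the 18 fits that left out 1 library (1.61 to 2.48), whereas the MM1S call was lost without the RSL3 library of passage 16 or any 1 of the MM1S untreated libraries (FDR of up to 0.141). With the passage as a block it passed in both lines, with an FDR of 0.0151 in MM1S and 0.0249 in MM1R.

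Over all 10 genes, averaged over both lines, 5 rose and 1 fell at an FDR under 0.05, where 8.70% of all genes tested rose and 6.81% fell. With the passage block 7 rose and 1 fell, against 14.9% and 15.5% of all genes. The 10 genes were chosen with earlier results of these data known, so these shares do not test them as a set. The median log2 fold change of the 10 genes was 0.59, compared with 0.00 over all genes tested. In MM1S 2 of the 10 rose (HSP90AA1, CHORDC1; 2.50% of all genes), or 6 with the block (6.79%). In MM1R none passed in the fit of group means (2.00% of all genes rose), although 4 of the 10 had an unadjusted p under 0.05 (18.5% of all genes) and DESeq2 called 1 (HSP90AA1, where 4.01% of all genes rose), whereas with the block 2 rose (HSP90AA1, CHORDC1; 6.83%) and HSF2 fell (6.25%).

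**Figure D2:**
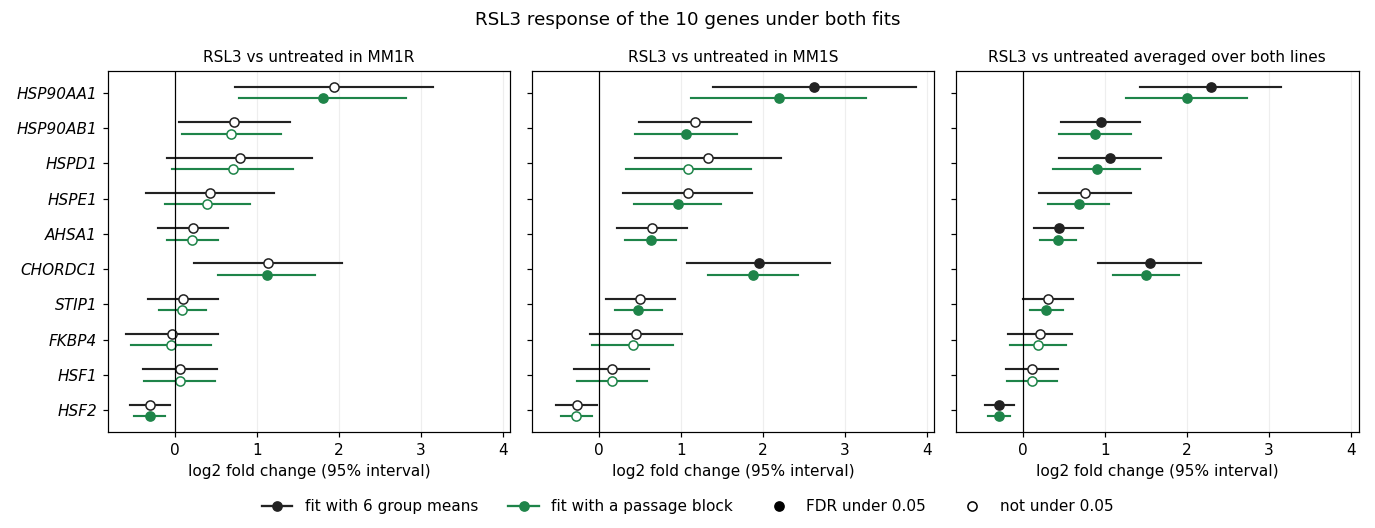
Log2 fold change of RSL3 against untreated cells with its 95% interval, for each gene in MM1R, in MM1S and averaged over both lines. Black marks the fit of 6 group means, green the fit with the passage as a block, and filled points an FDR under 0.05. In the averaged comparison 5 genes rose with the first fit and 7 with the second, and HSF2 fell with both.

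HSP90AB1 also rose, from 1910.2, 2205 and 2697 CPM to 2908, 2897 and 5471 CPM in MM1R, and from 2214, 2602 and 2973 CPM to 9894, 3710.0 and 3910.5 CPM in MM1S, in order of passage. The groups did not overlap in either line, and the same 2 RSL3 libraries were again the highest. The averaged log2 fold change was 0.95 ± 0.23 with an FDR of 0.0108. HSP90AB1 has a higher basal level and rose less than HSP90AA1 in each of the 6 passages. The reads of HSP90AA1 per read of HSP90AB1, a ratio within a library that no scaling can alter, were 0.259 to 0.303 in the 6 untreated libraries. With RSL3 they were 0.447 to 0.811 in MM1R and 0.455 to 1.01 in MM1S, so that both genes gave about equally many reads in the MM1S library of passage 16. Together HSP90AA1, HSP90AB1 and HSPD1 took 0.325% to 0.505% of all counts in untreated libraries and 0.517% to 2.14% with RSL3.

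**Figure D3:**
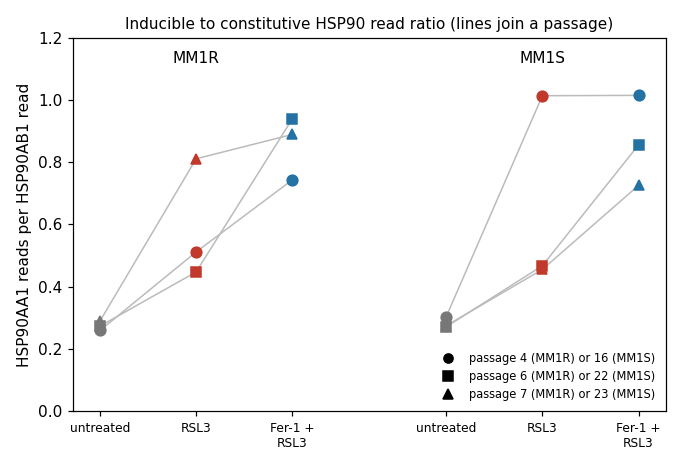
Reads of HSP90AA1 per read of HSP90AB1 in each library, by line and treatment. Grey lines join the 3 libraries of a passage. All untreated libraries lie between 0.259 and 0.303, the RSL3 libraries from 0.447 upward and the Fer-1 and RSL3 libraries from 0.725 upward.

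HSPD1, the HSP60 subunit, stood at 724, 895 and 974 CPM without treatment and at 987, 1104 and 2390.3 CPM with RSL3 in MM1R. In MM1S it stood at 910, 973 and 1120.2 CPM without treatment and at 4929.6, 1255 and 1383 CPM with RSL3. Every RSL3 library exceeded every untreated one of its line, but in 4 of the 6 passages the rise was only 1.23- to 1.36-fold, compared with 2.46-fold in MM1R passage 7 and 5.42-fold in MM1S passage 16. The averaged log2 fold change was 1.06 ± 0.30 (FDR 0.0237). Without the MM1R RSL3 library of passage 7 the FDR was 0.0686, and without the MM1S RSL3 library of passage 16 the log2 fold change was 0.60 with an FDR of 0.0528. In a fit of only the compared groups the FDR was 0.0544. The call was also lost without the untreated library of MM1R passage 4 or of MM1S passage 16 or 22. HSPE1, which encodes the lid and is divergently transcribed from the same locus, rose 1.19- to 1.504-fold in MM1R and 1.303- to 3.56-fold in MM1S within a passage, that is, in 6 of 6 passages. Its averaged log2 fold change of 0.76 ± 0.26 had an FDR of 0.0612, and 0.0102 with the block.

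CHORDC1 had the second largest fold change, from a very low level. In MM1R its libraries held 15, 12 and 19 counts without treatment and 25, 32 and 44 with RSL3. In MM1S they held 23, 15 and 14 counts without treatment and 93, 43 and 39 with RSL3. No RSL3 library fell within the untreated range of its line, and the rise within a passage was between 1.72- and 5.13-fold. The log2 fold change was 1.54 ± 0.30 on average (FDR 0.0025) and 1.95 ± 0.41 in MM1S (FDR 0.0177). Leaving out the MM1S RSL3 library of passage 16 gave 1.22 on average with an FDR of 0.00296, and 1.29 in MM1S with an FDR of 0.0869. The MM1S call was also lost without any 1 of the 3 MM1S untreated libraries, and was made in 14 of the 18 fits that left out 1 library.

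Of the other co-chaperones, AHSA1 rose from 112, 125 and 173 CPM to 129, 146 and 203 CPM in MM1R and from 136, 155 and 162 CPM to 302, 204 and 204 CPM in MM1S. The groups overlapped in MM1R and not in MM1S. The averaged log2 fold change was 0.43 ± 0.14, just within the threshold with an FDR of 0.0497, and with the block the FDR was 0.00798. In the fits that left out 1 library AHSA1 was called in 5 of 18, with an FDR of up to 0.122 without the MM1R RSL3 library of passage 7. It was also not called with RLE scaling (FDR 0.0517), with the authors' size factors (FDR 0.0525) or in a fit of only the compared groups (FDR 0.0758). STIP1 differed by 1.01- to 1.85-fold within a passage, higher in 6 of 6, with an averaged log2 fold change of 0.30 ± 0.14 (FDR 0.159, and 0.0341 with the block). FKBP4 did not pass in any fit of the RSL3 response, with a log2 fold change of -0.03 in MM1R and 0.45 in MM1S, and was higher in 4 of 6 passages. Its ratio was 2.10-fold in MM1S passage 16 and 0.924- to 1.06-fold in the other 5 passages.

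The transcription factors did not rise with the chaperones. HSF1 mRNA did not pass in any RSL3 comparison, with ratios of 0.787- to 1.32-fold within a passage and an averaged log2 fold change of 0.11 ± 0.15 (FDR 0.683, 95% interval -0.21 to 0.43). HSF2 stood at 34.7, 33.4 and 33.4 CPM without treatment and at 24.5, 29.5 and 28.4 CPM with RSL3 in MM1R. In MM1S it stood at 35.6, 34.9 and 41.5 CPM without treatment and at 27.8, 31.8 and 33.1 CPM with RSL3. HSF2 was thus lower in 6 of 6 passages, and no RSL3 library reached the untreated range of its line. The averaged log2 fold change was -0.29 ± 0.08 (FDR 0.0263), or -0.29 ± 0.06 with the block (FDR 0.00388). It was called in 13 of the 18 fits that left out 1 library, and lost without the RSL3 library of MM1R passage 4 or MM1S passage 16 or the untreated library of MM1R passage 4 or 6 or MM1S passage 23, where the FDR reached its highest value of 0.0778. With no filter on low counts the FDR was 0.109. HSF2 was the only 1 of the 10 genes whose fall passed the test.

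Counted by overlap alone, 4 genes in MM1R (HSP90AA1, HSP90AB1, HSPD1, CHORDC1) and 7 in MM1S (these 4, HSPE1, AHSA1, STIP1) had all 3 RSL3 libraries above all 3 untreated ones. Over all genes tested, 13.5% in MM1R and 12.6% in MM1S did so. In each line only HSF2 among the 10 lay wholly below, as did 12.3% of all genes in MM1R and 12.3% in MM1S.

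The signed log2 fold change with RSL3 was lower in MM1R than in MM1S for each of the 10 genes, so that HSF2 fell slightly more in MM1R, with log2 differences between -0.81 (CHORDC1) and -0.03 (HSF2). None of these differences passed the test in edgeR or DESeq2, and 0 had an unadjusted p under 0.05, nor did any gene in the whole table (0% called, with 222 genes at an unadjusted p under 0.05). For HSP90AA1 the difference was -0.68 with a 95% interval of -2.34 to 0.97, for HSP90AB1 it was -0.44 with an interval of -1.40 to 0.51, and for CHORDC1 it was -0.81 with an interval of -2.07 to 0.44. The size of the MM1S response rested in part on passage 16. Without its RSL3 library, the log2 fold change in MM1S was 1.27 for HSP90AA1 (FDR 0.141), 0.56 for HSP90AB1 (FDR 0.345) and 0.40 for HSPD1 (FDR 0.645), and the number of the 10 genes called in MM1S was then 0 in place of 2. The line difference for HSP90AA1 without this library was 0.68, opposite in sign. That of HSP90AB1 was 0.17. In MM1R, HSP90AA1, HSP90AB1 and CHORDC1 were called once this MM1S library was left out, with FDRs of 0.00334, 0.0479 and 0.0387. Leaving out the MM1R RSL3 library of passage 7 gave 1.16 in MM1R for HSP90AA1 (FDR 0.293) and 0.28 for HSPD1 (FDR 0.796). These 2 libraries also had the lowest TMM factors, 0.864 and 0.926, against 0.969 to 1.06 in the others, and the part of this in the result was not tested.

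With Fer-1 before RSL3, HSP90AA1 and CHORDC1 were above their untreated level in both lines, while the other genes did not pass in the fit of group means. With Fer-1 and RSL3, HSP90AA1 stood at 2221, 4513 and 3716 CPM in MM1R and at 4582, 3939 and 3308 CPM in MM1S. These libraries share their untreated controls with the RSL3 comparison. All 6 values lay above the untreated range of their line. Against untreated cells, HSP90AA1 was raised by 2.48 ± 0.58 in MM1R (FDR 0.0145) and by 2.43 ± 0.58 in MM1S (FDR 0.0237) on the log2 scale. CHORDC1 was raised by 1.80 ± 0.42 (FDR 0.0134) and 2.03 ± 0.41 (FDR 0.00913). These 2 genes were the ones called in each line, where 5.57% of all genes rose in MM1R and 2.60% in MM1S. With the block AHSA1 and STIP1 joined them in both lines, against 11.5% and 7.16% of all genes. By overlap, 4 of the 10 genes in MM1R and 8 in MM1S had all Fer-1 and RSL3 libraries above all untreated ones, as did 16.5% and 14.7% of all genes. HSP90AB1 had FDRs of 0.128 in MM1R and 0.170 in MM1S, HSPD1 of 0.186 and 0.280, HSPE1 of 0.733 and 0.335 and FKBP4 of 0.554 and 0.550. FKBP4 was below its untreated library in 2 MM1R passages. Leaving out the passage 6 library of MM1R that carries MM1S transcripts gave 2.25 for HSP90AA1 (FDR 0.0523) and 1.73 for CHORDC1 (FDR 0.0453), and with the block 2.04 (FDR 0.0252) and 1.63 (FDR 0.00461), without AHSA1 and STIP1. The overlap count in MM1R was then 4 as well, against 20.2% of all genes. In MM1R the call of HSP90AA1 was also lost without the untreated library of passage 4 or 6 (FDR of up to 0.0617) and that of CHORDC1 without the untreated library of passage 6 (FDR 0.0671). In MM1S the call of HSP90AA1 was lost without any 1 of the untreated libraries or the Fer-1 and RSL3 library of passage 16 or 22 (FDR of up to 0.0957), and that of CHORDC1 without the untreated library of passage 23 (FDR 0.0513).

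Fer-1 and RSL3 compared with RSL3 alone gave 0 calls among the 10 genes in MM1R, in MM1S and on average. This comparison shares its RSL3 libraries with that of RSL3 against untreated cells. A high or low RSL3 value therefore moves these comparisons in opposite directions. Over all genes, 0% were called in MM1R, 0% in MM1S and 0.119% on average in edgeR's quasi-likelihood test, with 881, 821 and 1826 genes at an unadjusted p under 0.05. Among the 10, HSF2 had such a p in MM1R and on average. The block called none of the 10 here, and DESeq2 none of those it adjusted, which left out CHORDC1 in MM1R. HSP90AA1 differed by 0.53 in MM1R (95% interval -0.64 to 1.70) and by -0.20 in MM1S (-1.36 to 0.97) on the log2 scale. Without the MM1R library of passage 6 the MM1R value was 0.30 (FDR 1). The passages went in opposite directions. HSP90AA1 was 1.49- and 3.48-fold higher with Fer-1 in MM1R passages 4 and 6 and 2.27- and 1.86-fold higher in MM1S passages 22 and 23. It was 0.837-fold in MM1R passage 7 and 0.457-fold in MM1S passage 16, the passages with the highest RSL3 values of their lines. Without the RSL3 library of MM1S passage 16 the log2 difference in MM1S was 1.16 (FDR 0.998), and without that of MM1R passage 7 it was 1.305 in MM1R (FDR 0.973). HSP90AB1, HSPD1 and AHSA1 followed the same split, higher in the same 4 passages and lower in the same 2.

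**Figure D4:**
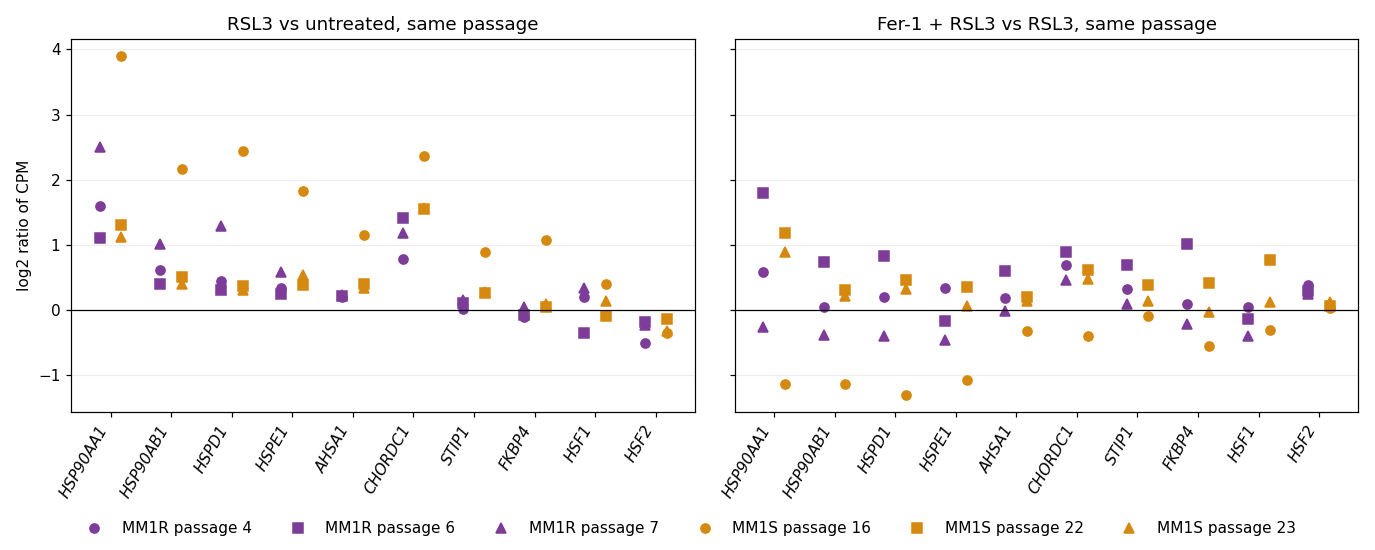
Log2 ratio of CPM between libraries of the same passage for each gene, RSL3 against untreated cells on the left and Fer-1 and RSL3 against RSL3 on the right. Purple marks MM1R, orange MM1S and symbols the passage. HSF2 was below 0 in all 6 passages on the left and above 0 in all 6 on the right, whereas HSP90AA1 was above 0 in all 6 on the left and in 4 of 6 on the right. Both panels use the same RSL3 libraries, so a low RSL3 value lowers the ratio on the left and raises that on the right.

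The ratio of HSP90AA1 to HSP90AB1 reads fell in none of the 6 passages, but the same 2 passages had its smallest changes. With Fer-1 and RSL3 it was 0.743, 0.939 and 0.889 in MM1R and 1.015, 0.856 and 0.725 in MM1S. In RSL3 libraries of the same passages it was 0.512, 0.447 and 0.811 in MM1R and 1.014, 0.467 and 0.455 in MM1S. It was 1.45- to 2.10-fold higher with Fer-1 in 4 passages, 1.10-fold in MM1R passage 7 and 1.00-fold in MM1S passage 16, with the upper end of 2.10 in the library that carries MM1S transcripts. The ratio was examined after its values had been seen and was not tested.

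CHORDC1 was higher with Fer-1 and RSL3 than with RSL3 alone in 5 of 6 passages, by 1.37- to 1.86-fold, and was 0.755-fold in MM1S passage 16. STIP1 was likewise higher in 5 of 6, by 1.06- to 1.62-fold. HSPE1, FKBP4 and HSF1 were higher in 3 of 6 passages. HSPE1 was 0.888- and 0.725-fold in MM1R passages 6 and 7, 0.474-fold in MM1S passage 16, and 1.04- to 1.28-fold in the others. FKBP4 reached its largest ratio of 2.01-fold in MM1R passage 6, the library that carries MM1S transcripts, and without it the log2 difference in MM1R moved from 0.31 to 0.01.

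HSF2 was higher with Fer-1 and RSL3 than with RSL3 alone in 6 of 6 passages. The RSL3 libraries are the same ones in which HSF2 was below untreated cells, so these comparisons are not independent. With Fer-1 and RSL3, HSF2 stood at 31.85, 35.99 and 33.7 CPM in MM1R and at 28.3, 33.2 and 36.1 CPM in MM1S. In MM1R the groups did not overlap, as for 6.96% of all genes in this direction, nor did they without the passage 6 library (10.1% of all genes), where the log2 difference in MM1R was 0.26 (FDR 1). The log2 difference from RSL3 was 0.30 ± 0.12 in MM1R (FDR 0.729), 0.07 ± 0.12 in MM1S (FDR 0.98) and 0.19 ± 0.08 on average (FDR 0.349, and 0.111 with the block). Against untreated cells HSF2 was at a log2 difference of 0.00 in MM1R (95% interval -0.24 to 0.24) and of -0.20 in MM1S (-0.44 to 0.05).

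The pattern of HSP90AA1 over the 12 treated libraries, each as a log2 ratio to the untreated library of its passage, was most like that of HSPH1, an HSP110 nucleotide exchange factor, with a Pearson r of 0.980 among the 14271 genes tested other than the 10 described here. LRP5L (0.970), DNAJA1, a cytosolic HSP40 (0.942), P4HA1 (0.939) and GPR89B (0.939) followed. Among the 10 genes, HSP90AA1 had an r of 0.941 with HSPD1, and HSPD1 an r of 0.979 with HSP90AB1. Outside them, HSPD1 was most like CLCN6 (0.973), GPBP1 (0.965), USPL1 (0.958), DNAJA1 (0.954) and HSPH1 (0.952). HSF2 was most like EFR3B (0.918), LGALS8 (0.904), ALDH2 (0.892), CRAMP1 (0.881) and ZNF443 (0.874). A high r need not mean a shared direction. CLCN6 had a mean log2 ratio of -0.13 with RSL3 and -0.16 with Fer-1 and RSL3, unlike the other genes listed for HSPD1. With RSL3, where HSF2 fell, EFR3B and LGALS8 had means of 0.05 and 0.16, while those of ALDH2, CRAMP1 and ZNF443 were negative. The 28 pairs among the 8 chaperone and co-chaperone genes had r between 0.453 and 0.979, with a median of 0.788. As Spearman rho they ranged from 0.322 (HSPE1 with CHORDC1, r 0.453) to 0.993 (HSP90AA1 with HSP90AB1, r 0.921). Each of the 8 genes had its highest CPM in the MM1S RSL3 library of passage 16, and r was not computed without that library. HSF2 correlated with the same 8 genes by an r of -0.447 to 0.398, and HSF1 by 0.041 to 0.626. Without the MM1R library that carries MM1S transcripts, r over 11 libraries was 0.575 to 0.980 among the 8 and -0.329 to 0.245 for HSF2. For HSF1 it was then 0.389 to 0.575, and HSP90AA1 had an r of 0.979 with HSPH1. Libraries of a passage share their untreated library, so these correlations describe the 12 libraries and carry no test.

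The averaged RSL3 response of related families was uneven. Of the 2 other HSP90 paralogs tested, HSP90B1 of the endoplasmic reticulum had a log2 fold change of 0.24 (FDR 0.139) and mitochondrial TRAP1 of -0.15 (FDR 0.296), while with the block the first rose (FDR 0.0149) and the second fell (FDR 0.0313). With the block 14.9% of all genes rose and 15.5% fell. Of 32 other HSP90 co-chaperones tested, 2 rose and 0 fell, near the shares of all genes (6.25% against 8.70% for those that rose), namely CDC37L1 (0.59, FDR 0.0131), a relative of the kinase adaptor CDC37, and PPID (0.37, FDR 0.0309), an immunophilin like FKBP4. CHP1, a calcium-binding protein that entered the list through a symbol that is also an alias of CHORDC1, was left out after its value was seen (0.29, FDR 0.00993). The 32 genes had a median log2 fold change of -0.02, and with the block 5 rose and 3 fell, 15.6% and 9.38% against 14.9% and 15.5% of all genes. Of 17 subunits and partners of the cytosolic chaperonin TRiC and of prefoldin, 0 passed in edgeR (1 at an unadjusted p under 0.05), with a median of 0.00, and with the block 1 fell (5.88%, against 15.5% of all genes). Among 15 mitochondrial chaperones and proteases, GRPEL2, a nucleotide exchange factor of mitochondrial HSP70, rose (0.50, FDR 0.00321) and the protease HTRA2 fell (-0.37, FDR 0.0119), and with the block 2 rose and 2 fell. Without the block 6.67% of this list rose and 6.67% fell, against 8.70% and 6.81% of all genes. With it the shares were 13.3% and 13.3%, against 14.9% and 15.5% of all genes. HSF4, HSBP1 and HSBP1L1, which make up the tested list of other heat shock factors and their binding proteins, did not pass in edgeR (0 also at an unadjusted p under 0.05), with log2 fold changes of 0.11, 0.12 and 0.03.

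Of 12 HSP70 and HSP110 genes 6 rose, where 8.70% of all genes did, with a median log2 fold change of 0.45, among them HSPA13 (1.11, FDR 2.72e-05), HSPA8 (1.37, FDR 0.000393), HSPA5 of the endoplasmic reticulum (0.49, FDR 0.000908) and HSPH1 (2.00, FDR 0.00233). HSPA6, also among the 6 that rose, went from a mean of 1.41 CPM untreated to 551 CPM with RSL3 in MM1R. In MM1S it went from 0.978 to 1489 CPM. Its RSL3 libraries ran from 92.4 to 1386 CPM in MM1R and from 64.5 to 4321 CPM in MM1S. Of 15 DNAJ, BAG, ubiquitin and small heat shock genes, a list made of genes known to be induced by stress, 9 rose, against the same 8.70%, with a median of 1.06, among them DNAJB1 (3.89, FDR 0.000186) and BAG3 (3.08, FDR 0.000354), both co-chaperones of HSP70. These lists too were chosen with earlier results of these data known, so the shares do not test them as sets. Among the genes given here with a log2 fold change, HSP90AA1 at 2.29 lay between HSPH1 and BAG3. HSP90AB1 at 0.95 and HSPD1 at 1.06 were lower than HSPA8. With Fer-1 and RSL3 against RSL3 on average, none of the 7 lists had a gene that passed.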

How the data were processed

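RNA was sequenced by the authors as paired reads from 18 libraries, checked with FastQC 0.11.5 and aligned to hg19 with STAR 2.7.3a. The authors deposited raw read counts on 43735 genes and a normalized signal table (29553 genes) of counts divided by a size factor per library (0.834 to 1.08). The counting tool, annotation and strand setting are not given in the sources used here, so genes sharing reads with pseudogenes, such as HSP90AB4P (0 to 5 counts), are uncertain. Rows named HSPE1-MOB4, CHORDC1_1 and HSF1_1 held 0 counts.

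Deposited counts were filtered with filterByExpr (minimum count 10), scaled by TMM (factors 0.864 to 1.06) and tested with edgeR 4.0.16 (R 4.3.3), a quasi-likelihood test with 6 group means, 12 residual degrees of freedom and Benjamini-Hochberg adjustment (FDR) over 14281 genes. Called means an FDR under 0.05. Fold changes carry SE, CPM values SD. The passage, given in the labels, pairs libraries: deviations from group means correlated within a passage with a median of 0.250 in MM1R (0.0338 to 0.516) and 0.416 in MM1S (0.216 to 0.681). A passage block leaves 8 residual degrees of freedom. Alternatives were RLE and upper-quartile scaling, DESeq2 1.42.0, other count filters, only the compared groups and leaving out each library, and, chosen after seeing the data, the authors' size factors and the block without 1 library. Replicates differed beyond sampling noise (chi-square per degree of freedom 7.88 to 163). Gene lengths came from the GENCODE annotation lifted to hg19 (canonical transcript), promoters from RefSeq, and correlations used log2 CPM with a prior count of 2. By the naming rule the text names all 10 genes, NR3C1, up to 5 genes per list by smallest FDR, and the 5 genes most like HSP90AA1, HSPD1 and HSF2. The genes and lists were chosen with earlier results of these data known. The steps were tested on simulated data.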

Additional observations from a re-analysis of the deposited data

How the results depend on the processing

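The counts of the 10 genes called moved with the test, the filter and the samples fitted. In the RSL3 response of MM1R, where the fit of 6 group means called 0, DESeq2 called 1, no filter on low counts 3, a fit of only the compared groups 1, and the passage block 3 with or without the MM1R library that carries MM1S transcripts. In MM1S, where it called 2, DESeq2 called 5, no filter 7, only the compared groups 0, and the block 6 with or without that library. Averaged over both lines, a log2 fold change over 1 in addition to the FDR left 3 of 6, and a fit of only the compared groups 4, without HSPD1 and AHSA1. For Fer-1 and RSL3 against untreated cells, no filter, only the compared groups and the block each called 4 in MM1R in place of 2, and in MM1S DESeq2 called 4, no filter 7, only the compared groups 7, and the block 4 with or without that library, in place of 2. The share of all genes called moved too. For RSL3 averaged over both lines it was 15.5% in the fit of group means and 11.9% with only the compared groups. With the added fold change threshold the share was not computed. For RSL3 in MM1R and MM1S it was 3.36% and 3.67% in the fit of group means, 7.17% and 7.84% with DESeq2, 3.64% and 4.36% with no filter, 3.83% and 0.0228% with only the compared groups and 13.1% and 13.3% with the block. For Fer-1 and RSL3 against untreated cells it was 9.22% and 4.61%, 13.2% and 8.50%, 5.54% and 3.89%, 9.86% and 7.13%, and 22.2% and 14.7% in the same order. The cause was not tested. RLE and upper-quartile scaling, the authors' size factors and a minimum count of 50 left each count within 1.5 times. The counts of the line difference, of Fer-1 and RSL3 against RSL3 and of the untreated lines were 0 under each alternative run. The untreated lines differ in passage, so that no block could be fitted for that comparison.

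Leaving out 1 library at a time gave 0 to 3 calls for RSL3 in MM1R, 0 to 4 in MM1S, 3 to 7 on average, and for Fer-1 and RSL3 against untreated cells 0 to 4 in MM1R and 0 to 6 in MM1S. The share of all genes called in these fits was not computed. Without 1 library, some log2 differences also changed sign. In the RSL3 response of MM1R, STIP1 ran from -0.095 to 0.27, FKBP4 from -0.30 to 0.18 and HSF1 from -0.079 to 0.18. The line difference ran from -1.46 to 0.68 for HSP90AA1 and from -0.80 to 0.17 for HSP90AB1. For Fer-1 and RSL3 against RSL3 in MM1R, HSP90AB1 ran from -0.069 to 0.44, HSPD1 from -0.10 to 0.63 and HSPE1 from -0.46 to 0.23. In MM1S, HSP90AA1 ran from -0.58 to 1.16, HSP90AB1 from -0.60 to 0.26, HSPD1 from -0.79 to 0.46, HSPE1 from -0.66 to 0.25, AHSA1 from -0.12 to 0.19, CHORDC1 from -0.18 to 0.74, FKBP4 from -0.28 to 0.21 and HSF2 from -0.013 to 0.17, and on average HSP90AA1 ran from -0.024 to 0.84. Against untreated cells in MM1R, HSPE1 ran from -0.0069 to 0.53, FKBP4 from -0.027 to 0.48, HSF1 from -0.22 to 0.012 and HSF2 from -0.048 to 0.043.

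Under other settings, HSP90AA1 for Fer-1 and RSL3 against RSL3 in MM1S was 0.17 with the passage block, and 0.17 with the block and without the MM1R library that carries MM1S transcripts, in place of -0.20. The block without that library gave -0.11 for HSP90AB1, -0.022 for HSPD1 and -0.058 for FKBP4 in this comparison in MM1R, and -0.11 for FKBP4 against untreated cells. HSF2 in MM1R, at 0.00 against untreated cells, was -0.017 with RLE, with DESeq2 and with no filter, -0.018 with the authors' size factors, -0.0029 with the block and -0.027 with the block without that library. The causes of these sign changes were not tested. Over single genes and settings, 1843 values kept sign and call, 76 gained a call, 48 lost one and 58 changed sign. Depth limits CHORDC1 and HSF1 most. HSF1 and FKBP4 were called in none of the comparisons under any setting tried.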
